A study of Mus musculus with 10 samples.

Results

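The keratins, the gene family whose proteins form the intermediate filaments of epithelial cells, were examined in RNA of whole mouse embryos at embryonic day 11.5. Members were chosen by name, as every gene whose symbol is Krt followed by a number, with or without one letter, and whose mean normalized count was above 0. Of 52 such genes, 48 were above 0, out of 20665 genes above 0 and 24302 genes in the table. RNA-seq libraries were made from 10 C57BL/6 embryos, of which 3 were wildtype, 3 were heterozygous for the *Wwc2* deletion and 4 were homozygous *Wwc2* KO embryos. In the crosses that gave the E11.5 embryos, a floxed *Wwc2* gene was deleted with a *Zp3*-driven Cre recombinase, which acts in growing oocytes. The study used this line to remove maternal as well as zygotic *Wwc2*. Of the embryos here, only the homozygous KO embryos lack both copies of the gene. The labels write the genotypes as WWC2-/+ and WWC2-/-. Each library holds the RNA of a whole embryo, so epithelial cells are a part of the tissue measured, and fewer cells of a type and less RNA per cell cannot be told apart. The value used for a gene is the authors' mean normalized count over all 10 embryos, that is, the average of the read counts after division by each library's size factor. It carries no error and does not separate the genotypes, so the loss of *Wwc2* itself could not be checked here. The levels below describe E11.5 embryos of all 3 genotypes together and no comparison between genotypes was made.

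Keratin filaments are built from pairs of an acidic type I and a basic type II chain, so epithelial cells express at least one gene of each type. Keratins 8 and 18, with 7 and 19, are typical of simple, single-layered epithelia, and are also known from trophoblast, yolk sac endoderm and mesothelium. Keratins 5, 14 and 15 mark the basal layer of stratified epithelia such as the epidermis, keratins 1 and 10 mark its suprabasal layers, and further sets are used by mucosa, wounded or appendage epithelium, the inner root sheath of the hair follicle and the hair shaft. At this stage the embryonic skin is a thin epithelium covered by periderm, and hair follicles have not yet formed.

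In the mean over embryos of all 3 genotypes, keratin counts were dominated by the simple keratins. By qRT-PCR at E11.5 the study reported higher *Krt19* in *Wwc2* KO than in control embryos. The shares below may thus differ between genotypes, which was not tested. Together the 48 keratins had a summed mean normalized count of 13952, which is 0.0546% of the counts of all genes. The simple keratins *Krt7*, *Krt8*, *Krt18* and *Krt19* took 82.4% of these keratin counts, the 18 stratified keratins 15.96% and the 20 hair keratins of root sheath and shaft 0.285%. The remaining keratins were *Krt20* and *Krt23*, which are also found in simple epithelia (0.992%), and 4 keratins outside these classes (0.336%). Counts were concentrated in few genes, since the 5 highest keratins held 90.4% and the 10 highest 98.7% of the keratin counts. Most of the family was near the bottom of the expression range. The median keratin had a mean normalized count of 2.73, against 307 over all genes above 0, and 15 of 48 keratins (31.2%) reached a mean normalized count of 10, which 77.0% of all genes above 0 did. Another 15 lay between 1 and 10, and 18 lay under 1.

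**Figure D1:**
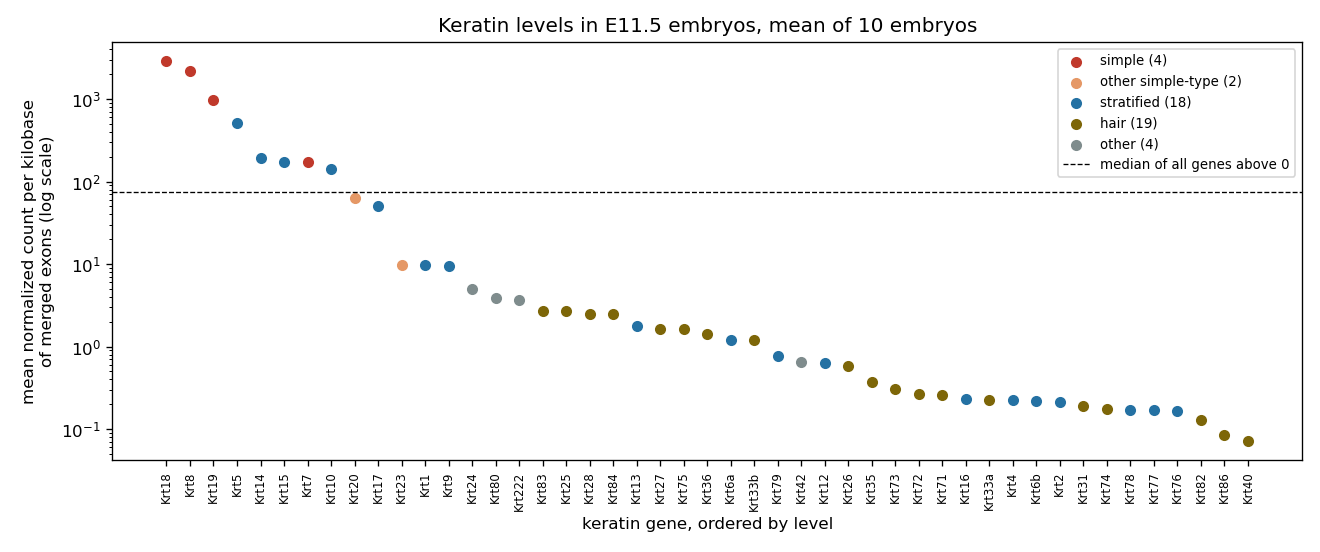
Mean normalized count per kilobase of merged exons (y axis, log scale) of the 47 keratins with a level above 0 and an annotated length (x axis, ordered by level), coloured by class, with the number of genes per class in brackets. Each point is the authors' mean over 10 embryos divided by exon length. The dashed line is the median of all genes above 0 (75.0), and the 8 keratins above it are the 4 simple keratins, *Krt5*, *Krt14*, *Krt15* and *Krt10*.

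Levels of different genes were compared per kilobase of exon, with all annotated exons of a gene merged. On this scale *Krt18*, the type I chain of simple epithelia (ENSMUSG00000023043), was the highest keratin with 2871, followed by its type II partner *Krt8* (ENSMUSG00000049382) with 2217. These levels exceeded those of 98.5% and 97.9% of the 19897 genes above 0 that had a length. *Krt19* (ENSMUSG00000020911), a type I keratin without the usual long tail domain, came next with 975 per kilobase, above 93.6% of genes. *Krt7* (ENSMUSG00000023039), a type II keratin of ducts and glands, had 174 per kilobase, above 65.4% of genes and below *Krt5*, *Krt14* and *Krt15*. As mean normalized counts before division by length, the values were 4126 for *Krt18*, 4340.3 for *Krt8*, 1808 for *Krt19* and 1226 for *Krt7*, so that *Krt8* led *Krt18*, and *Krt7* stood directly after *Krt19* and above *Krt5*. Its merged exons span 7049 bases, while its longest transcript has 4094 and its coding sequence 1371 bases. Per kilobase of coding sequence *Krt7* had 894, above *Krt5* with 641, and per kilobase of its longest transcript 299, below *Krt5* with 508. The position of *Krt7* between the simple and the basal keratins therefore depended on the length used, while *Krt18*, *Krt8* and *Krt19* were the 3 highest keratins on all of the length scales.

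**Figure D2:**
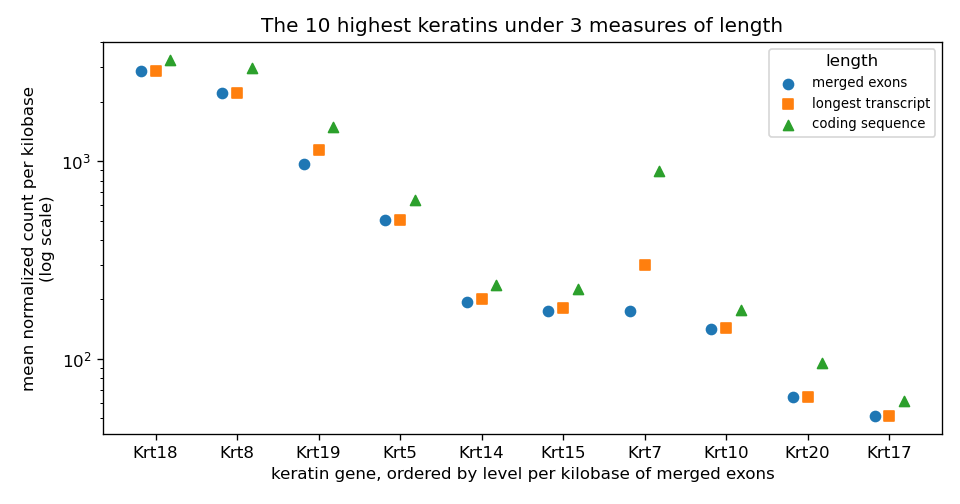
Mean normalized count per kilobase (y axis, log scale) of the 10 highest keratins (x axis), with the length taken from merged exons (circles), the longest transcript (squares) or the coding sequence (triangles). The symbols of *Krt7* lie farthest apart, from 174 with merged exons to 894 with coding sequence, while *Krt18* stays between 2871 and 3251.

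The stratified keratins were uneven. Their median level of 0.980 per kilobase was far below the median of 1596 of the simple keratins, a ratio of 1628. That ratio rests on stratified keratins of few reads, and it was 165 when keratins under a mean normalized count of 1 were left out. The basal keratins, *Krt10* and *Krt17* lay far above that median. *Krt5*, the type II chain of basal keratinocytes (ENSMUSG00000061527), had 508 per kilobase and a mean normalized count of 1115, and its type I partners *Krt14* and *Krt15* had 195 and 174 per kilobase, with counts of 343 and 308. These 3 genes held 12.7% of the keratin counts, and *Krt5* exceeded the level of 86.0% of all genes above 0. Among the keratins of suprabasal skin, *Krt10*, the type I chain of the spinous layer, had 142 per kilobase (count 299), while its type II partner *Krt1* had 9.64 per kilobase (count 42.6). *Krt9*, known from palm and sole skin, had 9.48 per kilobase, and *Krt2* and *Krt77* had 0.215 and 0.169. *Krt17*, a type I keratin of appendages that is also made in embryonic skin, stood apart from the other activation keratins. It had 51.3 per kilobase (count 79.5), against 1.20 for *Krt6a*, 0.235 for *Krt16* and 0.219 for *Krt6b*. Of the 6 mucosal and corneal keratins all were above 0 and none reached a count of 10, with levels from 0.163 per kilobase for *Krt76* to 1.79 for *Krt13*, the type I keratin of oesophagus and tongue.

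Outside these classes, *Krt20*, a type I keratin of gut and urothelium, had 63.9 per kilobase (count 123), which gave it rank 9 among the keratins, and *Krt23* had 9.79 per kilobase. *Krt24*, *Krt80*, *Krt222* and *Krt42* lay between 0.643 for *Krt42* and 4.94 for *Krt24*. *Krt20* was thus nearer to *Krt10* than to *Krt23* on the log scale. Of the 20 keratins that were highest per kilobase, the lowest 4 were hair keratins. These were *Krt83*, *Krt25*, *Krt28* and *Krt84*, with 2.71, 2.68, 2.47 and 2.47.

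Filament partners were compared as ratios of the type II to the type I chain. Summed over all keratins with a length, type II keratins had 0.648 of the level of type I keratins per kilobase of merged exons and 0.945 as counts without length. The *Krt8* and *Krt18* pair was close to balance, with a ratio of 0.772 per kilobase of merged exons, 0.908 per kilobase of coding sequence and 1.05 as counts. *Krt5* exceeded *Krt14* by 2.60 and *Krt15* by 2.91 per kilobase, and the ratio of *Krt5* to both type I partners together was 1.37. The suprabasal pair was unbalanced in the other direction, with a ratio of *Krt1* to *Krt10* of 0.0681 per kilobase of merged exons and 0.125 per kilobase of coding sequence. For the mucosal pair *Krt4* to *Krt13* it was 0.127 per kilobase, with 5 and 32 reads behind the genes. Without *Krt8* and *Krt18*, type II keratins had 0.430 of the level of type I keratins per kilobase of merged exons.

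For keratins of low level, the reads of every library could be read from the mean. A gene with 1 read in 1 library has a mean of 1 divided by 10 times that library's size factor, and 10 such values recurred in the table, each in 45 to 103 genes. They give size factors between 0.616 and 1.23, with 1 library well below the next, which had 0.881. Numbering the libraries from 1 for the largest to 10 for the smallest size factor, each of the 32 keratins with a mean normalized count under 7 could be written as whole reads of these libraries in exactly 1 way, within a tolerance of 2e-14. The means do not tell which library came from which genotype, so these reads are given for 10 unlabelled libraries and no group was formed from them. The 32 keratins had 562 reads in all, from 15 reads in library 10 to 112 in library 8.

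**Figure D3:**
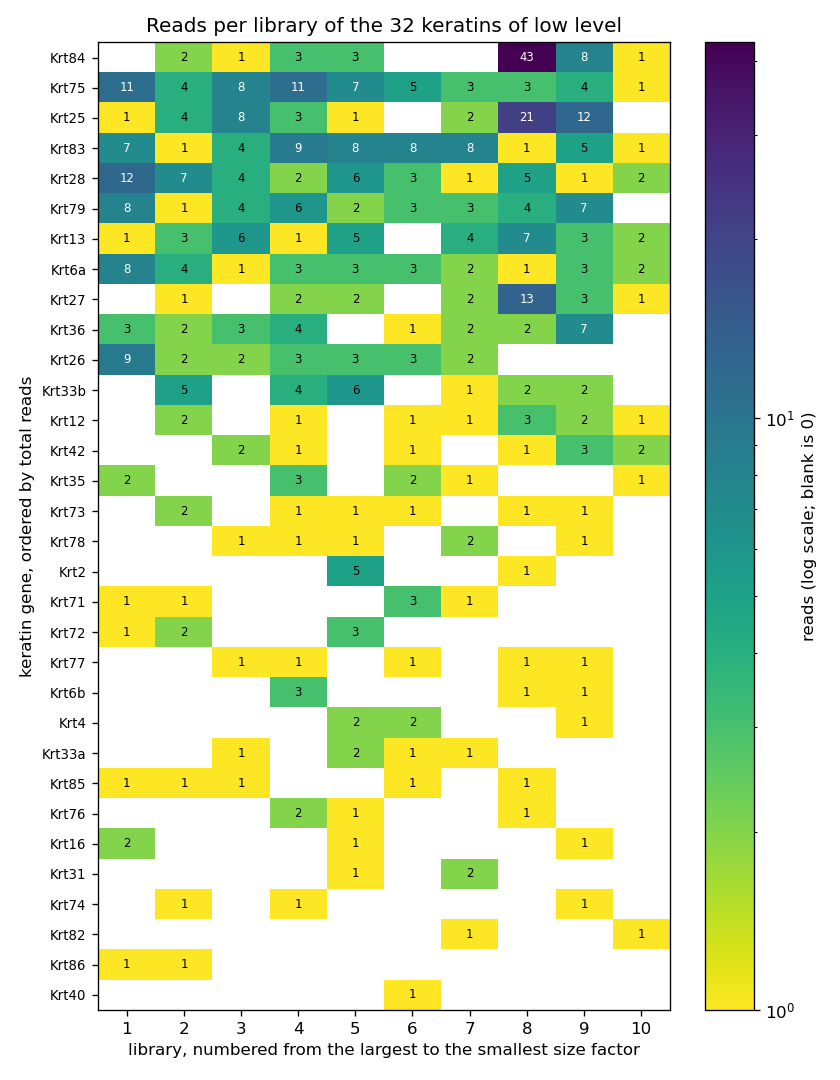
Reads of the 32 keratins with a mean normalized count under 7 (y axis, ordered by total reads) in each of the 10 libraries (x axis, numbered from the largest to the smallest size factor, with no genotype assigned). Colour and number give the reads, and blank cells are 0; *Krt84* had 43 of its 61 reads and *Krt27* 13 of its 24 in library 8.

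All 20 hair keratins above 0 fell in this range. *Krt84*, a hair and tongue keratin, had 61 reads (exact Poisson 95% interval 46.7 to 78.4, counting error only), of which 43 (70.5%) were in library 8 and 8 in library 9. Its reads in libraries 1 to 10 were 0, 2, 1, 3, 3, 0, 0, 43, 8 and 1. *Krt25*, a type I keratin of the inner root sheath, had 52 reads, with 1, 4, 8, 3, 1, 0, 2, 21, 12 and 0 in the same order. *Krt27*, of the same type and class, had 24 reads, with 0, 1, 0, 2, 2, 0, 2, 13, 3 and 1. These 3 keratins were highest in the same library. Others were not: *Krt28* had 12 of 43 reads and *Krt26* 9 of 24 reads in library 1, *Krt36* had 7 of 24 in library 9, and *Krt33b* had 6 of 20 in library 5. *Krt75*, of the companion layer, and *Krt83*, of the hair shaft, had reads in all 10 libraries, with at most 11 of 57 and 9 of 52 reads in 1 of them. Summed over the 20 hair keratins, the normalized count was lowest in library 10 with 13.0, had a median of 34.9 and was highest in library 8 with 99.6, and the second highest was library 9 with 49.9. In library 8 the 11 hair shaft keratins summed to 53.0, of which *Krt84* alone gave 46.5. The 9 root sheath and companion layer keratins summed to 46.5, of which *Krt25* gave 22.7 and *Krt27* 14.1, so these 3 genes held most of the hair keratin count of that library. *Krt26*, which lies between *Krt25* and *Krt27* on chromosome 11, had 0 reads there. Without library 8, *Krt84* kept 18 reads and its mean normalized count was 2.08 in place of 6.52, so its place as the hair keratin of the highest count rested on that library. For *Krt25* the mean was then 3.40 in place of 5.33 with 31 reads left, for *Krt27* 1.29 in place of 2.57 with 11 reads left, and for the 20 hair keratins together 33.1 in place of 39.8. The mucosal and corneal keratins were also highest there, with 16.2 against a median of 9.76, and library 9 had 15.9. Of the 9 cornified envelope genes 5 were low enough to be read in the same way, and they did not share 1 library. *Cdsn*, of the cornified cell junctions, had 12 of 43 reads in library 8, and *Rptn* had both of its reads there. *Krtdap*, of differentiating keratinocytes, had 10 of 34 reads in library 9, 8 in library 4 and 7 in library 8. *Ivl*, which encodes involucrin, had 5 of 20 reads in library 5 and 0 in library 8, and *Sprr1b* had 2 of 3 reads in library 5. Whether genotype, stage or the library itself goes with these reads was not tested.

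At the lower end, 19 of these 32 keratins had at most 10 reads, and 13 had reads in fewer than 5 libraries. *Krt2*, a late epidermal keratin, had 6 reads, 5 of them in library 5, while *Krt77* had 5 reads in 5 libraries. *Krt6a*, an activation keratin, had 30 reads in all 10 libraries, with 8 in library 1, while *Krt6b* had 5 and *Krt16* 4 reads. *Krt79* and *Krt13*, both outside the hair classes, had 38 and 32 reads in 9 libraries each. Just above 0, *Krt40* had 1 read in library 6, *Krt86* had 2 reads and *Krt82* had 2 reads. Just below the limit of the family, the hair shaft keratins *Krt32*, *Krt34*, *Krt39* and *Krt81* were at 0 in all libraries, which allows a mean normalized count of up to 0.487 each, if 3 reads in the library of the smallest size factor are taken as the limit. *Krt31*, *Krt74*, *Krt76*, *Krt16*, *Krt85*, *Krt33a*, *Krt82*, *Krt86* and *Krt40*, with 1 to 5 reads, were themselves under this value, as was *Krt4*. An order among these genes is not resolved at this depth.

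Many keratins are similar in sequence, and reads from shared stretches may be left uncounted or be assigned to another gene. The study's methods do not say how such reads were handled. Of the 80-base stretches of annotated transcripts, the read length of the study, 49.5% of *Krt6a* and 37.4% of *Krt6b* also occur in other genes, each other among them. The shares were 31.7% for *Krt86*, 29.6% for *Krt81*, 28.0% for *Krt16*, 23.1% for *Krt34*, 22.2% for *Krt8* and 17.8% for *Krt31*. *Krt81* and *Krt34* were at 0 in all libraries, and the limit given above for them allows for depth only, not for shared sequence. The *Krt8* stretches recur in its pseudogene *Krt8-ps* and in the antisense lincRNA *Gm36026*, whereas *Krt18*, *Krt19* and *Krt7* had no shared stretch. The ratio of *Krt8* to *Krt18* given above was not corrected for the shared *Krt8* stretches. For *Krt5* and *Krt14* the shares were 6.99% and 5.13%. *Krt12* shares 34.3% of its stretches with the antisense gene *A830036E02Rik*. The study's methods name a directional library kit, but whether reads were counted by strand is not given in the sources used here. In all, 22 of the 47 keratins above 0 that were found in the annotation had at least 1 shared stretch, and no keratin shared exon bases with another gene on its own strand. On the opposite strand *Krt7* shares 77 exon bases (1.09%) with *Gm671*, *Krt8* 101 bases (5.16%) with *Gm36026*, *Krt10* 146 bases (6.91%) with *Gm11940*, and *Krt6a* 471 bases (19.5%) with *Gm49428*.

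The keratin genes lie in 2 clusters of the GRCm38 genome. On chromosome 11, 27 genes from *Krt222* to *Krt42* (99232761 to 100269871) are all type I, and on chromosome 15, 24 genes from *Krt80* to *Krt18* (101347444 to 102032027) are type II except for *Krt18*. The 2 highest keratins, *Krt8* (101996698 to 102004482, minus strand) and *Krt18* (102028180 to 102032027, plus strand), are neighbours at the end of the chromosome 15 cluster and are 23697 bases apart. *Krt19* (100140810 to 100148665) is next to *Krt15* (100131758 to 100135928), separated by 4881 bases on chromosome 11, and *Krt14* (100203162 to 100207548) and *Krt17* (100256217 to 100261029) follow in the same stretch. High and low genes alternated there: *Krt16*, between *Krt14* and *Krt17*, had 4 reads. On chromosome 15, *Krt5* (101707070 to 101712898) stood between *Krt6a* and *Krt71* (30 and 6 reads). From *Krt33a* to *Krt36* on chromosome 11 all genes are hair shaft keratins, and none exceeded 1.41 per kilobase.

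**Figure D4:**
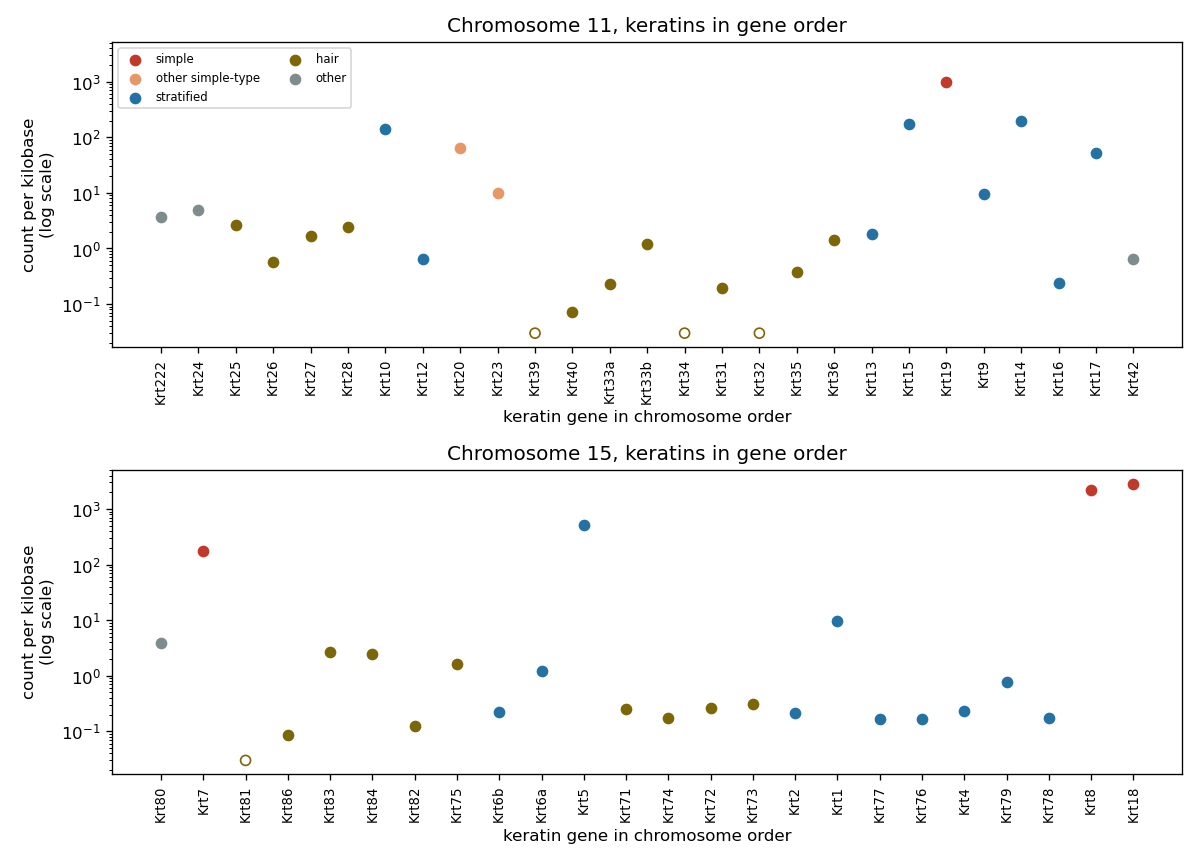
Mean normalized count per kilobase of merged exons (y axis, log scale) of the keratins in chromosome order (x axis, evenly spaced) on chromosome 11 (top, 27 genes) and chromosome 15 (bottom, 24 genes), coloured by class. Open circles at the bottom are the 4 genes at 0; the 2 highest points, *Krt8* and *Krt18*, are the last genes of the chromosome 15 cluster.

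Promoter sequences are shown for the 2 highest keratins, for *Krt7*, and for 2 root sheath keratins of few reads, to set a high pair beside low genes of the same clusters. They are the RefSeq windows of GRCm38.p6, 250 bases before and 50 bases after the RefSeq gene start, which can differ from the GENCODE start given above, read on the gene's strand, and RefSeq windows were found for 32 of the 48 keratins (33 windows). *Krt19* was among those without an entry. Capitals mark TATAAA, the core of the TATA box, and GCCNNNGGC, a motif bound by AP-2 factors, each searched on both strands. The windows are chr15:102004293-102004592 (minus strand) for *Krt8*, chr15:102027966-102028265 (plus) for *Krt18*, chr15:101412153-101412452 (plus) for *Krt7*, chr11:99322902-99323201 (minus) for *Krt25* and chr15:101743048-101743347 (minus) for *Krt71*.
Krt8: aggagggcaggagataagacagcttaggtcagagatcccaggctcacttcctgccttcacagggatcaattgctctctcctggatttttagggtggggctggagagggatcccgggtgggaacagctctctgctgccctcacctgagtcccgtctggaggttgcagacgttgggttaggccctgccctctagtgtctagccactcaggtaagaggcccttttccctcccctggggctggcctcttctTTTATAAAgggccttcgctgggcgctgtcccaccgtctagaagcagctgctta
Krt18: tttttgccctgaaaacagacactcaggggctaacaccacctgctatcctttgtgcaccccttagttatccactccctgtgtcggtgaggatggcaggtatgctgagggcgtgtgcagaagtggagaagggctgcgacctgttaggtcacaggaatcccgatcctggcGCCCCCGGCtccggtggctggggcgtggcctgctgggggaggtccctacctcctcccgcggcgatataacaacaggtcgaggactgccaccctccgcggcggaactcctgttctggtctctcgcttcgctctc
Krt7: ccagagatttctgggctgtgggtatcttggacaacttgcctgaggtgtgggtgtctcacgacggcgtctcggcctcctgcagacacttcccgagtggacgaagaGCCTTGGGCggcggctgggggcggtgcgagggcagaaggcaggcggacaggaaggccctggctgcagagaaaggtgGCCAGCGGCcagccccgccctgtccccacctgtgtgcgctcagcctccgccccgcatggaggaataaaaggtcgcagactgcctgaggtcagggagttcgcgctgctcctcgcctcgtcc
Krt25: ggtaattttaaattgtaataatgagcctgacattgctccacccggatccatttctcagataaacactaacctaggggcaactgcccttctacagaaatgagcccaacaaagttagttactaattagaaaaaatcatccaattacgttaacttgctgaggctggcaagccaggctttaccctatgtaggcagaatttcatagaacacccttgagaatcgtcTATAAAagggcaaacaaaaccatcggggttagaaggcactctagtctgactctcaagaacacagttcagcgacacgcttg
Krt71: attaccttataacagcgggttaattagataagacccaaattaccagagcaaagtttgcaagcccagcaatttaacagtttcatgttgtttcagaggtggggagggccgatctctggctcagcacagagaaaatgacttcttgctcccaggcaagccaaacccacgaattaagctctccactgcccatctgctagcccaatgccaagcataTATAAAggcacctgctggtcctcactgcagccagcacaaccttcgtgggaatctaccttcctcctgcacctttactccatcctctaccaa

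TATAAA was found on either strand in 17 of the 33 keratin windows (51.5%), compared with 13.6% of all 32851 windows. By class it was in 11 of 14 hair keratin windows, in 3 of 12 stratified windows and in 1 of 3 simple windows, that of *Krt8*, where 2 overlapping matches, on opposite strands, lie at the RefSeq start. On the gene's strand and within 40 to 16 bases before the start, where a TATA box is usually placed, it was in 7 of 14 hair windows, in 3 of 12 stratified windows, in 0 of 3 simple windows and in 1.99% of all windows. The windows of *Krt25* and *Krt71* printed above hold it there, 30 and 40 bases before the start. GCCNNNGGC was in 5 of 33 keratin windows (15.2%), compared with 16.6% of all windows, and *Krt18* and *Krt7* were among the 5. CCAAT was in 13 of 33 keratin windows (39.4%) and in 37.4% of all windows, 8 of them of hair keratins and 0 of simple keratins. The matches are descriptions of these letters, and keratin windows are not independent, since neighbouring genes share ancestry.

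Genes of the proteins that work with keratins were measured per kilobase of merged exons. RNA of whole embryos cannot show whether the same cells express them and keratins. Of all genes above 0, 77.0% reached a mean normalized count of 10, and the median level was 75.0 per kilobase. Of 15 general epithelial genes all had a mean normalized count of at least 10. They ranged from 31.3 per kilobase for *Grhl2*, an epithelial transcription factor, to 513 for the claudin *Cldn4*. Their median was 127, against 1596 for the 4 simple keratins and 1.41 for the whole keratin family, hair keratins included. The 9 genes of the epidermal lineage and periderm were also all at 10 or more, from 11.01 per kilobase for *Ovol1* to 449.6 for *Perp*, a desmosome-associated protein, with *Trp63*, the regulator of stratified epithelia, at 72.5. Desmosome genes and keratin linkers reached 10 in 12 of 16, from 0.164 for *Dsc1*, of differentiated epidermis, to 913 for *Pnn*. Their median was 60.5, and *Jup* was next below *Pnn* with 464. Hemidesmosome genes did so in 9 of 9, with a median of 53.1 and levels from 13.0 for *Lamb3* to 716 for *Cd151*. Markers of terminal differentiation were lower. A count of 10 was reached by 4 of the 9 cornified envelope genes measured, from 0.0522 per kilobase for *Rptn* to 75.5 for the transglutaminase *Tgm1*. Of 53 keratin-associated protein genes, which encode the matrix of the hair shaft, 15 were above 0 and none reached a count of 10, and these ranged from 0.0568 for *Krtap24-1* to 3.57 for *Krtap17-1*. The 18 other intermediate filament genes all had a mean normalized count of at least 10, from 4.78 per kilobase for *Gfap* to 6889 for *Vim*, the mesenchymal filament, which was above every keratin.

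Markers of other tissues known to make simple keratins were also measured per kilobase. Trophoblast markers reached a count of 10 in 11 of 12, with *Synb* at 0 and levels from 5.30 per kilobase for *Gcm1* to 3249.8 for *Tpbpa*. These are means over embryos of all 3 genotypes, and how evenly the embryos contributed to them is not shown by the means. The study lists *Tpbpa* and *Psg21*, both among these markers, with the genes most upregulated in homozygous *Wwc2* KO embryos. The pooled trophoblast levels need therefore not describe wildtype embryos. The 12 genes of yolk sac endoderm, several of which are made in other tissues, lay between 36.9 for *Cubn* and 11914 for *Serpinh1*. The 5 mesothelial genes lay between 32.7 for *Lrrn4* and 156 for *Upk3b*, and 4 of 5 notochord genes reached a count of 10, from 0.188 for *Noto* to 156 for *Shh*. The part of these tissues in the simple keratin levels was not tested.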

How the data were processed

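Poly(A) RNA of 10 E11.5 embryos was sequenced, and per the labels and the study's methods reads were trimmed with Trimmomatic 0.33, aligned to mm10 with HISAT2, counted per gene with HTSeq and compared by the authors with DESeq2. The deposited signal values used here are the authors' mean normalized counts per gene over all 10 embryos. The deposited tables also hold the authors' own comparisons (log2 fold changes, standard errors, statistics, p-values), which were not used, so no genotype was compared and no test was run. Of the second table, only gene symbols were read. Depth per embryo is known only as size factors.

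Counts were divided by exon lengths from GENCODE release M21 (GRCm38), found for 51 of 52 keratins by Ensembl identifier (*Krt85* was not). Reads per library were solved from means under 7 as whole multiples of the 10 values that 1 read adds, a step tested on simulated data. Shared 80-base stretches were exact matches between GENCODE transcripts. Python 3.11.15, numpy 2.4.6, pandas 2.3.3 and scipy 1.17.1 were used. Members, classes and the 11 marker lists were chosen with earlier results of these data known, and motifs, printed windows and libraries singled out after the values were seen. Named genes were the 4 simple keratins, the 20 highest keratins per kilobase and the extremes of each class and list. Members just above 0 and genes that overlap a member were also named. Other keratins and other genes of the lists were named outside this rule, after their values were seen.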

Additional observations from a re-analysis of the deposited data

How the results depend on the processing

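The number of keratins with counts was 48 with any value above 0, 30 from a mean normalized count of 1 upwards and 15 from 10 upwards. The share of keratin counts taken by the 4 simple keratins was 82.4%, and it was 83.9% per kilobase of merged exons, 84.2% per kilobase of the longest transcript and 84.7% per kilobase of coding sequence. It was 83.4% with *Krt20* and *Krt23* added to the simple class and 82.8% among keratins whose mean normalized count was 10 or more. Leaving out members that overlap another gene on the same strand removed no gene. The median level of simple over that of stratified keratins was 1628 per kilobase of merged exons, 965 as counts without length, 1245 per kilobase of the longest transcript, 1105 per kilobase of coding sequence and 165 among keratins of 1 or more. The type II to type I ratio was 0.648 per kilobase of merged exons, 0.945 as counts without length, 0.811 per kilobase of coding sequence and 0.430 without *Krt8* and *Krt18*. The mean normalized count of the hair keratins together was 39.8, and without library 8, an alternative chosen after seeing the data, it was 33.1. Size factors set the depth limit, since 3 reads in the smallest library give a mean of 0.487. No paired analysis was possible because the result comes from no test and the means carry no replicate numbers, so no replicate of a group could be left out in turn. Among the keratins, reads per library were recovered for the 32 of low level, and for those a library of unknown genotype could be left out.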
